A study of Danio rerio with 18 samples.

Results

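The enzymes and complexes that write, read and erase Polycomb marks, histone methylation and acetylation, and DNA methylation were followed in regenerating zebrafish caudal fins. Members were taken by symbol, with case ignored: genes named EZH, EED, SUZ12, JARID2, CBX, PCGF, RING1, RNF2, PHC, KDM, KMT, HDAC, SETD, EHMT, DNMT, TET, REST or RCOR, with a family number where the name has one. This rule found 100 of the 32520 gene IDs in the table, and no measured value entered it. RNA was sequenced from caudal fin clips of fish with a knockout of s1, a silencer linked to regeneration, and of their wild-type siblings. Silencers are regulatory DNA that keeps transcription of genes low, and reads counted in genes do not check the loss of one. Wild-type (WT) fish were of the outbred Ekkwill (EK) strain, the knockout (KO) was derived from that strain, and fish were about 4 to 8 months old. Fins were collected freshly cut (0 dpa, days post amputation) and after 1 or 4 days of regrowth. This makes 6 groups, with 3 libraries in each, and since a library pools 10 fish, values of single fish cannot be seen.

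Polycomb proteins keep developmental genes silent. Polycomb repressive complex 2 (PRC2) methylates histone H3 at lysine 27 through its catalytic subunit EZH1 or EZH2, and PRC1 binds that mark through its CBX subunits and ubiquitylates histone H2A through its RING subunits. DNA methyltransferases (DNMT) add methyl groups to cytosine and TET enzymes oxidise them. Histone deacetylases (HDAC) remove acetyl groups, and KDM and KMT enzymes remove and add methyl groups on lysines. A kdm6b gene, for a demethylase of lysine 27, is known to be needed for zebrafish fin regeneration.

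Between 58.6 M and 155 M reads per library fell in genes, but the 5 most abundant genes took between 2.71% and 90.5% of them, which left 10.5 M to 75.5 M reads for all others. That share was below 20% in 4 libraries, 3 of them at 0 dpa (replicates 2 and 3 of WT, replicate 2 of KO) and 1 at 1 dpa (replicate 1 of KO), which are called low-share libraries here. It was between 79% and 90.5% in every 4 dpa library, so it moves with time. The deposited value, called signal, is the number of reads in a gene over a scaling factor of the library. The epidermal markers, the defining genes of fin surface tissue, had summed signals of 157071 to 473937 per library, against 91 to 440 for the muscle markers.

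Of the 100 members, 96 had 3 or more libraries with a signal of 10 or higher and were tested. The IDs annotated cbx3b, PCGF6 and KDM5A had 0 reads in all 18 libraries, where 3 reads would be a signal of 1.17 to 7.47. The fourth untested member, setd1bb, had signals of 0 to 9.97. Tested members were well covered: 85 of 96 had at least 20 reads in every library, and their median signal was 644, against 186 over all 22779 tested genes. Of the 100, 16 share a symbol with a second ID (for example 2 IDs named DNMT3A). These are given with their ID, and their values are uncertain where reads of near-identical copies could fall on either.

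Many members changed with time, and more rose than fell. A gene is called when its adjusted p from limma (Benjamini-Hochberg over all 22779 genes) is below 0.05, and folds are ratios of mean signals with 3 libraries per group. From 0 to 1 dpa, 28 of 96 members were called higher and 7 lower in WT. That is 36.5% of members, near the 40.2% of all tested genes, but 29.2% of members were higher against 19.1% of all genes, and 7.29% lower against 21.1%. In KO 21 rose and 7 fell (29.2% of members against 29.3% of all genes; 21.9% against 15.4% for higher and 7.29% against 13.9% for lower). That low share of KO falls moved with the fit: with the share of the dominant genes as a further term, described below, KO falls numbered 15 (15.6% of members against 16.3% of all genes). From 0 to 4 dpa, 46 rose and 16 fell in WT (64.6% of members against 55.6% of all genes; 47.9% against 25.9% for higher and 16.7% against 29.6% for lower). In KO 43 rose and 16 fell (61.5% against 49%; 44.8% against 23.3% for higher and 16.7% against 25.7% for lower). The median change of the tested members from 0 to 4 dpa was log2 0.45 in WT and 0.40 in KO, while the median of all tested genes was -0.03 in WT and -0.02 in KO. Both genotypes' libraries are separate, and 38 members were called higher at 4 dpa in both (82.6% of the WT list and 88.4% of the KO list; over all tested genes 76.5% and 85.3%), 12 were called lower in both (75% of each list; over all genes 76.3% and 87.9%) and 0 were called in opposite directions. At 1 dpa 16 rises were common to both (57.1% of the WT list and 76.2% of the KO list; over all genes 62.5% and 77.4%), and so were 3 falls (42.9% of each list; 51.9% and 78.7%).

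**Figure D1:**
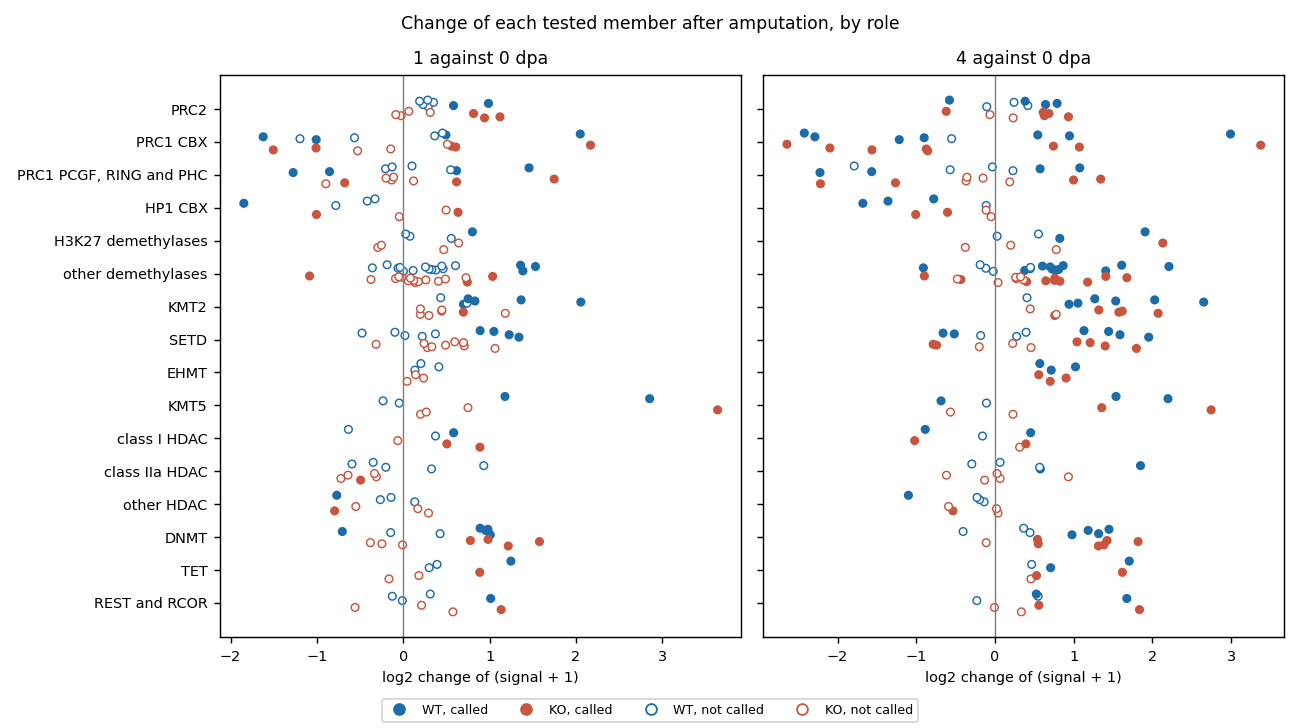
Change in log2(signal + 1) of each tested member (horizontal axis) by role group (vertical axis), from 0 to 1 dpa on the left and from 0 to 4 dpa on the right, with WT in blue and KO in red; filled points were called and open points were not. At 4 dpa most KMT2, SETD and DNMT points lie above 0, and the PRC1 CBX points span from -2.64 (cbx7a in KO) to 3.38 (cbx6b in KO).

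The share of the dominant genes moved with these changes. Within 0 dpa, 55 of 96 members had higher mean log2 values in the 3 other libraries than in the 3 low-share libraries, and among the 46 called higher at 4 dpa in WT this was 35. Without the low-share libraries 1 WT library is left at 0 dpa, and its spread is assumed to be that of the other groups. In that fit 43 of the 62 WT calls at 4 dpa and 58 of the 59 KO calls were made again, and all of these calls kept their direction. With the share as a further term of the fit, 11 of the 62 WT calls and 29 of the 59 KO calls were made again, 16 WT members turned direction and 0 KO members did. At 1 dpa, 17 of the 35 WT calls and 25 of the 28 KO calls were made again without those libraries, and 11 and 26 with the term, where 5 WT members and 0 KO members turned direction. The counts themselves moved too. With the share term WT had 13 rises at 1 dpa (13.5% of members against 11.7% of all genes), and 8 rises and 6 falls at 4 dpa (8.33% against 8.85%, and 6.25% against 6.52%), so that the members' shares in WT at 4 dpa were near those of all genes. In KO at 4 dpa the rises then numbered 25 (26% against 15.7%). Without the low-share libraries WT rises at 1 dpa numbered 15 (15.6% against 12.8%) and at 4 dpa 36 (37.5% against 18.8%). Below, a call that was also made in both of these fits is said to hold in all 3 fits. For WT against 0 dpa this includes the fit with a single 0 dpa library. The share at 0 dpa was 3.61% to 34.3% in WT and 2.71% to 57.9% in KO. At 4 dpa it was 87.5% to 90.5% in WT and 79% to 82.9% in KO. Time and share are thus harder to tell apart in WT than in KO. A call that held in KO and was lost in WT therefore does not show a difference between the genotypes. At 4 dpa against 0 dpa, 7 of the 38 rises common to both genotypes held in all 3 fits in both (DNMT1, EHMT2, RCOR2, dnmt3ba, dnmt3bb.2, kmt5ab and phc2a). Of the 12 common falls, 4 did so (CBX8 ENSDARG00000098771, PCGF5, cbx7a and ezh1). At 1 dpa 9 of the 16 common rises did (DNMT1, HDAC8, KDM2A, RCOR2, RNF2, dnmt3ba, dnmt3bb.3, kmt5ab and phc2a), and 2 of the 3 common falls (CBX1 ENSDARG00000054442 and PCGF5). In whole tissue, fewer cells of a type and less RNA per cell cannot be told apart.

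The alternative catalytic subunits of PRC2 were called in opposite directions at 4 dpa in KO. In WT at that time ezh1 was called, and EZH2 changed in the same direction as in KO without a call. The interactions of genotype with time called 0 of the 7 PRC2 genes, so no difference between the genotypes was shown. EZH2, the subunit typical of dividing cells, had signals of 433, 367 and 393 in the KO libraries at 0 dpa, 867, 889 and 834 at 1 dpa, and 803, 725 and 749 at 4 dpa. No KO library after amputation overlapped those at 0 dpa, and EZH2 rose 2.17-fold at 1 dpa (log2 1.12, SE 0.18, adjusted p = 2.46e-04) and 1.91-fold at 4 dpa (log2 0.93, SE 0.18, adjusted p = 6.33e-04), both in all 3 fits. In WT, EZH2 signals were 617, 451 and 465 at 0 dpa, 836, 776 and 672 at 1 dpa, and 497, 750 and 829 at 4 dpa. The rise at 1 dpa was 1.49-fold (log2 0.58, adjusted p = 0.0192) and was not called in either of the other fits, and at 4 dpa the WT groups overlapped (log2 0.42, SE 0.18, adjusted p = 0.0625).

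The paralogue ezh1, which encodes the subunit found in resting cells, went the other way at 4 dpa. In WT its signals were 648, 555 and 549 at 0 dpa, 657, 650 and 835 at 1 dpa and 445, 349 and 381 at 4 dpa. In KO they were 724, 544 and 622, then 525, 870 and 614, then 393, 379 and 452. All 6 libraries at 4 dpa lay below all 12 earlier ones. The fall from 0 to 4 dpa was 1.49-fold in WT (log2 -0.58, SE 0.19, adjusted p = 0.0165) and 1.54-fold in KO (log2 -0.62, SE 0.19, adjusted p = 0.0129), and from 1 to 4 dpa 1.82-fold and 1.64-fold. These falls held in all 3 fits.

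The other PRC2 subunits follow, and none of their changes over time was called different between the genotypes. EED, which reads the lysine 27 mark within PRC2, rose 1.82-fold in KO at 1 dpa (log2 0.94, adjusted p = 0.0263), from 258, 593 and 325 to 836, 611 and 692. In WT its signals stayed between 296 and 689 over all times. SUZ12 ENSDARG00000070256 rose in KO at both times (1.70-fold at 1 dpa, adjusted p = 4.82e-03; 1.56-fold at 4 dpa, adjusted p = 8.17e-03) in all 3 fits. In WT its changes were log2 0.35 at 1 dpa and 0.24 at 4 dpa (adjusted p = 0.159 and 0.302). SUZ12 ENSDARG00000098924 rose 1.52-fold in KO and 1.31-fold in WT at 4 dpa, and JARID2 ENSDARG00000060925, a substrate-targeting subunit, rose 1.51-fold and 1.53-fold, but with the share term neither was called in either genotype. JARID2 ENSDARG00000062268 rose in WT, 1.88-fold at 1 dpa and 1.64-fold at 4 dpa, and the latter change was log2 -0.09 with the share term.

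The CBX subunits of PRC1, which recognise methylated lysine 27, split into groups that rose and groups that fell. The largest fall was in cbx7a. In WT it had signals of 384, 729 and 685 at 0 dpa, 899, 801 and 687 at 1 dpa, and 158, 59.8 and 129 at 4 dpa. In KO these were 549, 779 and 792, then 1669, 856 and 688, then 120, 110 and 103. The 1669 was that of the low-share library, and the KO fold against 1 dpa rests in part on it. Every library at 4 dpa lay under every earlier library. From 1 to 4 dpa it fell 6.88-fold in WT (log2 -2.88, SE 0.35, adjusted p = 4.14e-05) and 9.65-fold in KO (log2 -3.15, SE 0.35, adjusted p = 9.64e-06), and against 0 dpa 5.19-fold and 6.37-fold, in all 3 fits.

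CBX8 ENSDARG00000098771 was called lower already at 1 dpa, in KO in all 3 fits and in WT not with the share term. Its WT signals were 196, 248 and 223 at 0 dpa, 79.9, 74.2 and 60.9 at 1 dpa and 29.7, 49.8 and 59.4 at 4 dpa. In KO they were 127, 223 and 143, then 110, 57.6 and 76.6, then 49.2, 36.4 and 27.1. The groups at 0 dpa and at 4 dpa did not overlap in either genotype. By 4 dpa CBX8 ENSDARG00000098771 was 4.80-fold lower in WT (log2 -2.29, SE 0.31, adjusted p = 3.04e-05) and 4.38-fold lower in KO (log2 -2.10, SE 0.31, adjusted p = 6.46e-05), in all 3 fits. The other ID of that name, CBX8 ENSDARG00000087327, fell 1.85-fold and 1.90-fold at 4 dpa, and neither call was made with the share term.

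Other members of the family rose. For cbx6b the WT signals were 40.2, 15.7 and 9.37 at 0 dpa, 85.7, 71.6 and 79.7 at 1 dpa and 129, 137 and 200 at 4 dpa, and in KO 33.0, 3.85 and 24.7, then 40.0, 101 and 91.2, then 165, 199 and 142. No library at 1 or 4 dpa reached down to the 0 dpa range, except that KO 1 dpa replicate 1 (40.0) lay just under the highest WT library at 0 dpa (40.2). The mean of cbx6b at 0 dpa was 9.65 in the low-share libraries and 32.7 in the others. KO 0 dpa replicate 2 (3.85) was near the signal of 3 reads in that library (2.89), so folds against 0 dpa are uncertain. The rise at 4 dpa was 7.13-fold in WT (log2 2.99, SE 0.60, adjusted p = 6.36e-04) and 8.21-fold in KO (log2 3.38, SE 0.60, adjusted p = 2.94e-04), and the KO call held in all 3 fits. Smaller rises at 4 dpa were those of cbx2 (1.95-fold in WT and 2.12-fold in KO) and cbx6a (1.45-fold and 1.67-fold), for which again the KO calls, and not the WT calls, held in all 3 fits. CBX7, at signals of 4.47 to 46.8, was called lower in KO at 1 dpa, in all 3 fits. At 4 dpa CBX7 was 2.85-fold lower in KO (adjusted p = 0.0251), not called with the share term. In WT it was not called.

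**Figure D2:**
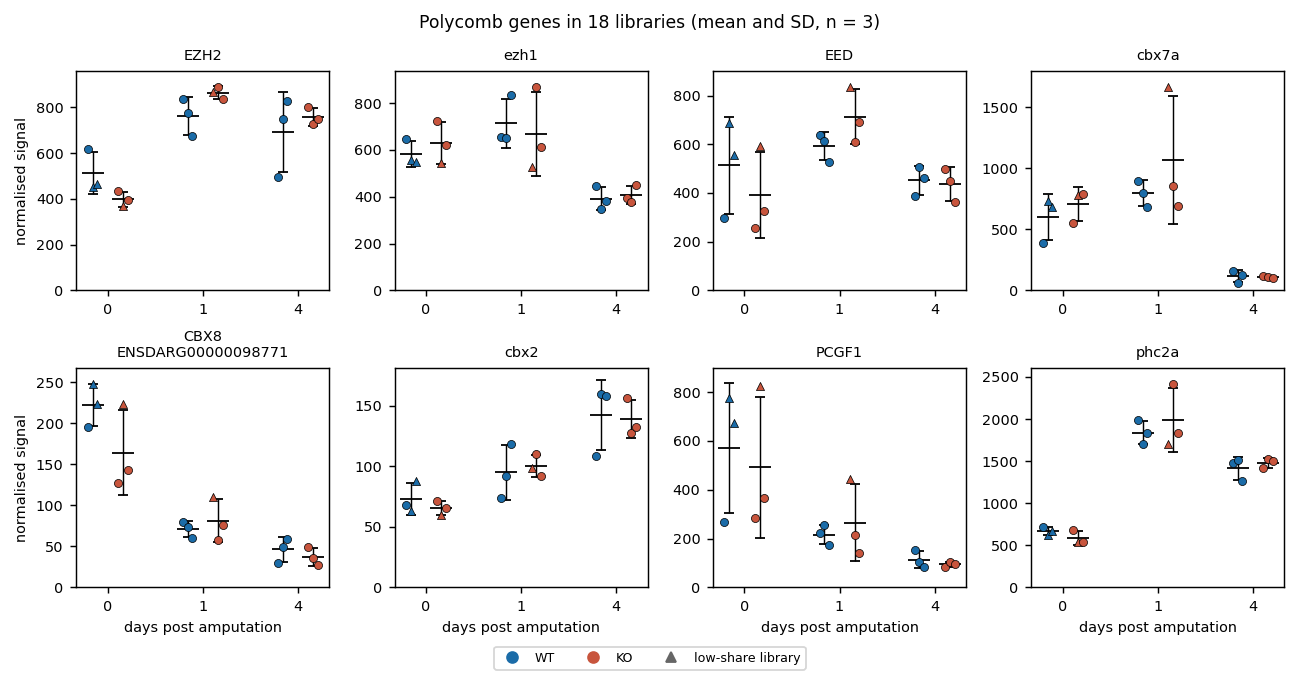
Normalised signal (vertical axis, linear) of 8 PRC2 and PRC1 genes at 0, 1 and 4 days post amputation (horizontal axis); each point is 1 library, WT in blue and KO in red, triangles are low-share libraries, and bars give the mean and SD of 3. All libraries after amputation lie above those at 0 dpa for phc2a, and for EZH2 they do so in KO; at 4 dpa cbx7a lies between 59.8 and 158 in all 6 libraries.

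Among the other PRC1 subunits, phc2a, a polyhomeotic gene whose product polymerises PRC1, had the most regular rise. Its WT signals were 716, 623 and 670 at 0 dpa, 1985, 1700 and 1837 at 1 dpa and 1477, 1510 and 1261 at 4 dpa, and in KO 683, 539 and 541, then 1708, 2416 and 1835, then 1418, 1531 and 1500. Groups at 0 dpa lay wholly below both later times. The rise at 1 dpa was 2.75-fold in WT (log2 1.46, SE 0.15, adjusted p = 4.10e-06) and 3.38-fold in KO (log2 1.75, SE 0.15, adjusted p = 4.97e-07), and at 4 dpa 2.12-fold and 2.52-fold, in all 3 fits. Its paralogue phc1 was called at 4 dpa against 1 dpa, at 1.71-fold in WT and 2.16-fold in KO, in all 3 fits. Another paralogue, phc2b, was called in no time comparison.

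PCGF5, which defines a variant PRC1 without CBX, fell at both times. In WT it had signals of 834, 693 and 738, then 417, 403 and 429, then 319, 279 and 183. In KO these were 737, 673 and 780, then 484, 444 and 439, then 304, 294 and 311. The 3 times did not overlap in either genotype, and the fall to 4 dpa was 2.9-fold in WT (log2 -1.57, SE 0.17, adjusted p = 4.33e-06) and 2.41-fold in KO (log2 -1.26, SE 0.17, adjusted p = 3.10e-05). All 6 time comparisons of PCGF5 were called and held in all 3 fits, whereas pcgf5a was called in none. PCGF1, of the BCOR-bound PRC1, fell 5.01-fold in WT and 5.20-fold in KO at 4 dpa (adjusted p = 7.03e-04 and 8.73e-04). At 0 dpa, however, its signals were 774, 671 and 823 in the low-share libraries and 270, 285 and 367 in the others, and only the KO call held in all 3 fits. RNF2, the catalytic RING subunit, rose 1.53-fold at 1 dpa in each genotype (adjusted p = 2.25e-03 in WT and 2.52e-03 in KO) in all 3 fits.

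The HP1-type CBX genes, whose products bind methylated lysine 9 in heterochromatin, fell or passed no test at 4 dpa. CBX3 fell 2.59-fold in WT and 1.52-fold in KO against 0 dpa, and 1.96-fold and 2.42-fold against 1 dpa (adjusted p = 7.41e-03 and 5.58e-04). The falls against 1 dpa held in all 3 fits and those against 0 dpa were not called with the share term. From 0 to 1 dpa CBX3 rose 1.58-fold in KO (adjusted p = 0.0335), in all 3 fits. The KO low-share library at 1 dpa had 2763 and the others 1630 and 1820. CBX1 ENSDARG00000054442 fell at 1 dpa in WT (3.66-fold, adjusted p = 4.56e-04) and in KO (1.96-fold, adjusted p = 0.0288), and both calls held in all 3 fits. The other ID, CBX1 ENSDARG00000004189, was called nowhere, and 1 WT library at 4 dpa had 4916 where its replicates had 594 and 524. CBX5 fell 1.74-fold at 4 dpa in WT, and with the share term its change there was 0.11 on the log2 scale.

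Of the 4 genes for H3K27 demethylases, which remove the mark PRC2 writes, kdm6bb changed most. Its WT signals were 1403, 847 and 844 at 0 dpa, 1586, 1643 and 2037 at 1 dpa and 3107, 4163 and 4098 at 4 dpa, and in KO 1319, 546 and 1014, then 1003, 1704 and 1627, then 4131, 3782 and 3949. All 6 libraries at 4 dpa lay above all 12 others. The rise to 4 dpa was 3.67-fold in WT (log2 1.91, SE 0.29, adjusted p = 7.49e-05) and 4.12-fold in KO (log2 2.13, SE 0.29, adjusted p = 2.79e-05). Against 1 dpa it was 2.16-fold and 2.74-fold and held in all 3 fits in both genotypes; against 0 dpa it held so in KO. The smaller WT rise at 1 dpa (1.70-fold, adjusted p = 0.0371) turned to log2 -0.09 with the share term. KDM6B ranged from 5101 to 10262 with no call, kdm6al from 859 to 2189 with no call, and KDM6A, the gene of the demethylase UTX, was called once, at 4 dpa in WT (1.66-fold, adjusted p = 0.0474, groups overlapping), in neither of the other fits.

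The KMT2 family includes enzymes that methylate lysine 4 at enhancers and promoters. At 4 dpa, 25.9% of all tested genes were higher in WT and 23.3% in KO. Of the KMT2 genes, 6 of 7 were called higher in WT and 5 of 7 in KO. Of these calls 0 in WT and 2 in KO held in all 3 fits. KMT2D had the highest fold. In WT its signals were 1290, 368 and 398 at 0 dpa, 2316, 2004 and 2957 at 1 dpa and 3171, 3700 and 4032 at 4 dpa. In KO they were 1585, 414 and 1062, then 1130, 2872 and 2510, then 3688, 3890 and 3628. Within each of the groups at 0 and 1 dpa that hold them, the low-share libraries were the lowest. Every library at 4 dpa lay above all earlier ones, and the share of the dominant genes was 79% to 90.5% in these libraries. Time and share cannot be told apart for this separation. The rise to 4 dpa was 5.30-fold in WT (log2 2.65, SE 0.48, adjusted p = 2.91e-04) and 3.66-fold in KO (log2 2.07, SE 0.48, adjusted p = 2.17e-03); both were called without the low-share libraries and neither with the share term. KMT2E rose 2.87-fold and 2.92-fold at 4 dpa and kmt2ba 2.37-fold and 2.44-fold, and their KO calls held in all 3 fits. For kmt2a the rise was 3.65-fold in WT and 2.76-fold in KO, and with the share term the WT change was log2 -0.04.

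The SETD genes followed the KMT2 genes in part. Their set holds SETD1A-type and SETD1B-type lysine 4 enzymes and SETD2, the enzyme of lysine 36 trimethylation. At 4 dpa setd1a rose 2.65-fold in WT and 2.25-fold in KO, SETD1B 3.42-fold and 3.07-fold, SETD5 2.7-fold and 2.37-fold, and setd2 2.08-fold and 1.99-fold. Of these 8 calls, 1 held in all 3 fits, that of setd1a in KO. SETD6 fell 1.84-fold in WT and 2.40-fold in KO from 1 to 4 dpa (adjusted p = 9.20e-03 and 4.71e-04), in all 3 fits, and SETD7, a lysine 4 monomethyltransferase, fell 1.57-fold and 1.73-fold from 0 to 4 dpa, not called with the share term. SETD3, SETD4 and SETD9 were not called between times.

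The highest fold of any member at 1 dpa was that of kmt5ab. With its paralogue kmt5aa it corresponds to mammalian KMT5A, the enzyme that monomethylates histone H4 lysine 20 during the cell cycle. The WT signals of kmt5ab were 7.81, 19.7 and 17.3 at 0 dpa, 129, 136 and 69.5 at 1 dpa and 44.5, 99.7 and 69.3 at 4 dpa, and in KO 6.96, 15.4 and 10.5, then 197, 143 and 101, then 82.7, 64.9 and 81.2. No library after amputation overlapped any at 0 dpa. The rise at 1 dpa was 7.48-fold in WT (log2 2.85, SE 0.40, adjusted p = 6.34e-05) and 13.4-fold in KO (log2 3.64, SE 0.40, adjusted p = 5.68e-06), in all 3 fits. The paralogue kmt5aa was not called higher, and it fell 1.63-fold at 4 dpa in WT and 1.81-fold from 1 to 4 dpa in KO, neither with the share term. The trimethylating enzyme's gene kmt5c rose 2.73-fold and 2.38-fold at 4 dpa, not called with the share term, and KMT5B was not called. The 3 EHMT genes, for lysine 9 dimethylation, all were called higher at 4 dpa in both genotypes, but the calls of EHMT1 and ehmt1a were lost with the share term in both. EHMT2 went from 160, 153 and 192 to 326, 329 and 371 in WT (2.03-fold, adjusted p = 1.48e-04) and from 172, 166 and 168 to 331, 290 and 331 in KO (1.88-fold, adjusted p = 4.36e-04), in all 3 fits.

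DNMT1, the maintenance methyltransferase that copies methylation to new DNA, rose at 1 dpa and was as high at 4 dpa. Its WT signals were 483, 586 and 664 at 0 dpa, 1035, 1155 and 1281 at 1 dpa and 975, 1166 and 1266 at 4 dpa, and in KO 423, 732 and 412, then 908, 1282 and 1378, then 1178, 1173 and 1426. The groups at 0 dpa lay wholly below the later ones. The rise at 1 dpa was 2.00-fold in WT (log2 1.01, SE 0.22, adjusted p = 2.42e-03) and 2.28-fold in KO (log2 1.22, SE 0.22, adjusted p = 6.50e-04), and at 4 dpa 1.97-fold and 2.41-fold, in all 3 fits.

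The de novo methyltransferase genes differed in time course. In WT, dnmt3ba went from 366, 363 and 355 at 0 dpa to 686, 672 and 745 at 1 dpa and 707, 865 and 908 at 4 dpa, and in KO from 231, 364 and 169 to 598, 799 and 797 and to 858, 790 and 925. The groups at 0 dpa lay wholly below the later ones, and the rise to 4 dpa was 2.29-fold in WT (log2 1.18, adjusted p = 3.15e-04) and 3.37-fold in KO (log2 1.82, adjusted p = 7.28e-06). Both calls, and those at 1 dpa (1.94-fold and 2.87-fold), held in all 3 fits. Its relative dnmt3bb.2 (13.0 to 59.4) rose 2.81-fold and 2.76-fold at 4 dpa, and dnmt3bb.3 rose 1.86-fold and 1.97-fold at 1 dpa, in all 3 fits. DNMT3A ENSDARG00000005394 was higher at 4 dpa, at 1556, 1906 and 1922 in WT and 2024, 2195 and 1982 in KO, against 493 to 1203 in all earlier libraries. It rose 2.38-fold in WT and 2.47-fold in KO against 0 dpa, with a WT change of log2 -0.10 under the share term, and 2.5-fold in KO against 1 dpa (adjusted p = 4.40e-03), in all 3 fits. DNMT3A ENSDARG00000015566 rose 1.51-fold and 1.73-fold from 1 to 4 dpa, in all 3 fits. DNMT3B fell 1.64-fold at 1 dpa in WT (adjusted p = 5.86e-03), not with the share term, and in KO its change was log2 -0.38 (adjusted p = 0.124).

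Among the TET genes tet3 was called higher at both times, in KO in all 3 fits and in WT at neither time with the share term. Its WT signals were 919, 602 and 574 at 0 dpa, 1607, 1596 and 1662 at 1 dpa and 2046, 2472 and 2191 at 4 dpa, and in KO 1016, 496 and 750, then 827, 1767 and 1636, then 2392, 2225 and 2066. All libraries at 4 dpa were above all earlier ones, while the KO low-share library at 1 dpa (827) lay within the 0 dpa range. By 4 dpa tet3 was 3.20-fold higher in WT (log2 1.71, SE 0.28, adjusted p = 1.33e-04) and 2.96-fold higher in KO (log2 1.62, SE 0.28, adjusted p = 2.18e-04). TET1 was called at 4 dpa in WT (1.59-fold, adjusted p = 0.0326) and TET2 in KO (1.43-fold, adjusted p = 0.0333), and neither with the share term. The change of TET1 in KO was log2 0.46 and that of TET2 in WT log2 0.47, of like size and not called.

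**Figure D3:**
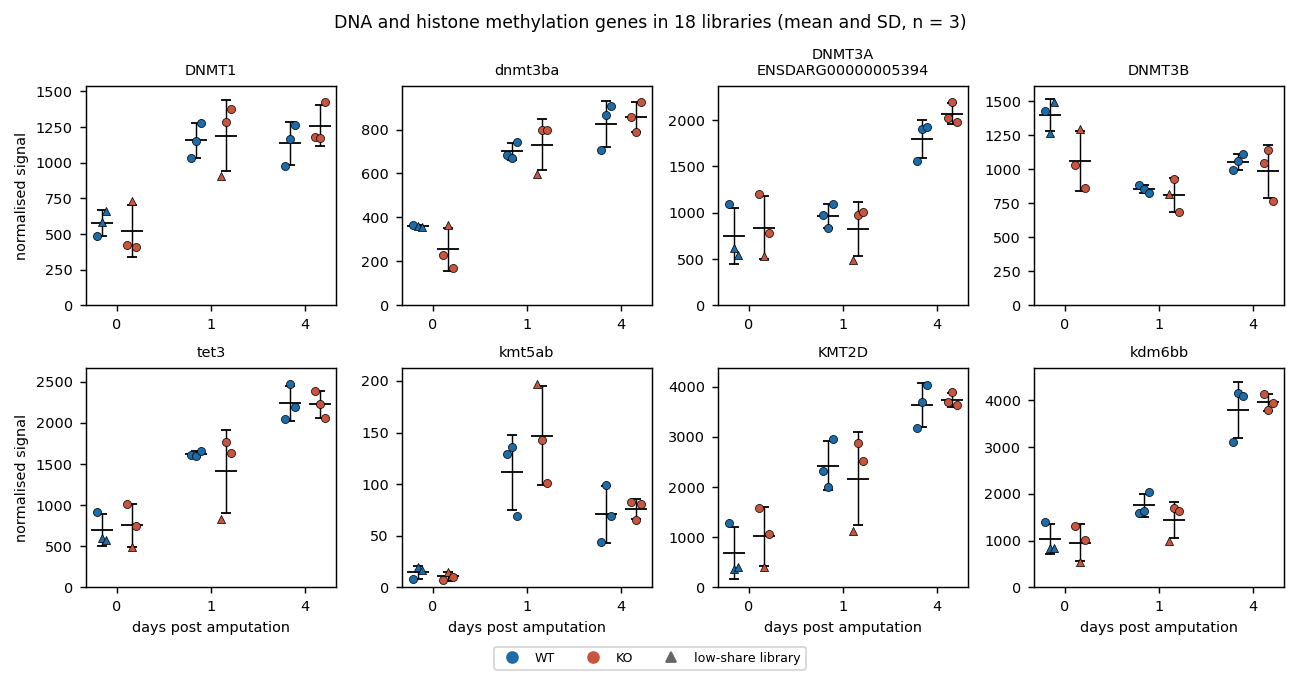
Normalised signal (vertical axis, linear) of 8 DNA and histone methylation genes at 0, 1 and 4 days post amputation (horizontal axis); each point is 1 library, WT in blue and KO in red, triangles are low-share libraries, and bars give the mean and SD of 3. DNMT1, dnmt3ba and kmt5ab are higher at 1 dpa, while KMT2D, kdm6bb and DNMT3A ENSDARG00000005394 are highest at 4 dpa.

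The class I HDAC genes moved differently from each other. HDAC8 rose in all 4 comparisons with 0 dpa, by 1.5-fold in WT and 1.43-fold in KO at 1 dpa (adjusted p = 3.30e-03 and 9.88e-03), and by 1.37-fold and 1.32-fold at 4 dpa. All but the WT call at 4 dpa held in all 3 fits. HDAC1 rose 1.87-fold at 1 dpa in KO (adjusted p = 5.68e-03), in all 3 fits, from 1218, 1718 and 1386 to 3504, 2313 and 2271, the 3504 being the low-share library. In WT its change at 1 dpa was log2 0.37 (adjusted p = 0.180). The corepressor subunit gene hdac3 fell 1.94-fold in WT and 2.10-fold in KO at 4 dpa (adjusted p = 0.0345 and 0.0195). With the share term the WT change was log2 0.60 and the KO call was lost, and at 0 dpa the low-share libraries (852, 722 and 820) were above the others (386, 419 and 497).

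Of the class IIa genes, whose products shuttle between nucleus and cytoplasm, HDAC4 and HDAC7 were called. HDAC4 rose 1.48-fold at 4 dpa in WT (adjusted p = 0.0122, in neither of the other fits) and fell 1.41-fold at 1 dpa in KO (adjusted p = 0.0477, in all 3 fits). HDAC7 rose 3.48-fold at 4 dpa in WT (adjusted p = 2.34e-03), where the share term gave log2 -0.10, and 2.23-fold from 1 to 4 dpa in KO (adjusted p = 0.0464), not called with the share term. HDAC5, hdac7b and hdac9b were not called. HDAC11, the sole class IV gene, fell 1.74-fold at 1 dpa in KO (adjusted p = 1.56e-03) and 1.45-fold at 4 dpa (adjusted p = 0.0124), in all 3 fits, and hdac12 fell in WT (1.73-fold at 1 dpa and 2.19-fold at 4 dpa), not called with the share term. HDAC6, the cytoplasmic tubulin deacetylase gene, and HDAC10 were not called.

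Of the 16 tested genes for other demethylases, 10 were called higher in WT and 8 in KO at 4 dpa, where 25.9% and 23.3% of all tested genes were higher, and 0 and 2 of these calls held in all 3 fits. The lysine 4 demethylase gene kdm5c rose 2.42-fold in WT and 1.97-fold in KO at 1 dpa, and the KO call held in all 3 fits, as did both calls of KDM2A, a CpG-island-binding lysine 36 demethylase gene (2.53-fold in WT and 1.64-fold in KO). Calls of KDM5B ENSDARG00000003098 (1.66-fold and 1.69-fold) and of kdm3b, for a lysine 9 demethylase (1.63-fold and 1.69-fold), were made at 4 dpa in both genotypes, and in KO held in all 3 fits. In kdm4aa, another gene of the lysine 9 and 36 demethylases, the low-share libraries at 0 dpa had 131, 186 and 139 and the others 452, 609 and 486, and the rise of 4.04-fold in WT and 2.7-fold in KO at 4 dpa was not called with the share term. The falls were those of KDM8 in WT (1.94-fold at 4 dpa; log2 0.32 with the share term) and, in KO, of KDM8 from 1 to 4 dpa (2.01-fold, adjusted p = 0.0442, in neither of the other fits), kdm7aa (2.14-fold at 1 dpa, adjusted p = 2.69e-03, and 1.91-fold at 4 dpa, adjusted p = 5.57e-03) and KDM7A (1.36-fold at 4 dpa). The calls of kdm7aa and KDM7A, whose products erase lysine 9 and 27 dimethylation, held in all 3 fits. KDM1A, the first lysine demethylase described in mammals, stayed between 754 and 1157 in all 18 libraries with no call.

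RCOR2, a corepressor partner of KDM1A, rose at both times. Its WT signals were 33.2, 62.9 and 38.2 at 0 dpa, 90.7, 95.9 and 78.2 at 1 dpa and 94.0, 154 and 188 at 4 dpa, and in KO 43.0, 63.5 and 25.8, then 88.5, 106 and 83.3, then 177, 148 and 130. The groups at 0 dpa lay below all later libraries, and the rise to 4 dpa was 3.25-fold in WT (log2 1.68, SE 0.32, adjusted p = 4.89e-04) and 3.44-fold in KO (log2 1.84, SE 0.32, adjusted p = 2.78e-04), in all 3 fits. REST, the repressor of neuronal genes that recruits RCOR proteins, rose 1.46-fold and 1.48-fold at 4 dpa, in neither genotype with the share term. RCOR1 and RCOR3 were not called. In all, 21 of 96 members (21.9%) were called in no time comparison, against 27.7% of all tested genes, of which 72.3% were called in at least 1.

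Between 1 and 4 dpa, a comparison with 1 low-share library (in KO at 1 dpa), 5 members rose and 5 fell in WT (10.4% of members against 13.8% of all tested genes; 5.21% against 7.17% for higher and 5.21% against 6.61% for lower), and 13 rose and 12 fell in KO (26% against 27.9%; 13.5% against 11.6% for higher and 12.5% against 16.2% for lower). The WT count moved with the fit. With only the groups compared fitted it was 22 rises and 11 falls, for which no share of all genes is given here. Without the low-share libraries it was 24 and 12 (25% of members against 15.4% of all genes, and 12.5% against 18.9%). With 1 library left out it was 0 to 7 rises. All 10 WT calls were also KO calls in the same direction (38.5% of the KO rises and 41.7% of the KO falls; over all genes, 86.4% of WT rises and 85.6% of WT falls were shared, which is 53.2% and 34.8% of the KO lists), and all 10 held in all 3 fits in both genotypes. The rises were those of DNMT3A ENSDARG00000015566, EHMT1, EHMT2, kdm6bb and phc1, and the falls those of CBX3, PCGF5, SETD6, cbx7a and ezh1.

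Ratios between paralogues within a library do not depend on its size factor, and 4 were compared between times by an exact two-sided permutation test within genotypes (400 arrangements, smallest possible p 0.005, Benjamini-Hochberg over 12 tests). In WT the log2 ratio of ezh2 to ezh1 was -0.20 ± 0.12 at 0 dpa, 0.10 ± 0.36 at 1 dpa and 0.79 ± 0.55 at 4 dpa (SD, n = 3). In KO it was -0.66 ± 0.09, 0.40 ± 0.35 and 0.90 ± 0.15. Over both genotypes the ratio rose by 0.68 at 1 dpa (exact adjusted p = 0.0429), by 1.28 at 4 dpa (exact adjusted p = 0.015) and by 0.60 between these times (exact adjusted p = 0.0429). With 1 library left out, the last call was lost in 10 of 12 fits (adjusted p up to 0.1), the first in 4 of 12 (up to 0.07) and the second in 0. All 6 ratios at 4 dpa lay above all 6 at 0 dpa. Without the low-share libraries the differences were 0.55, 1.23 and 0.68, and none was called (exact adjusted p = 0.06 for the last). The differences against 0 dpa then rest on a single WT library there. That from 0 to 4 dpa had the smallest p that its 40 arrangements allow, so the lack of a call does not decide on it.

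The ratio of dnmt1 to the sum of the 6 dnmt3 genes changed direction between the times. In WT its log2 value was -2.88 ± 0.47 at 0 dpa, -1.86 ± 0.11 at 1 dpa and -2.41 ± 0.046 at 4 dpa (SD, n = 3), and in KO -2.92 ± 0.54, -1.73 ± 0.14 and -2.35 ± 0.18. All 6 values at 1 dpa lay above all others. It rose by log2 1.11 from 0 to 1 dpa (exact adjusted p = 0.015) and fell by 0.59 from 1 to 4 dpa (exact adjusted p = 0.015), which left it 0.52 above 0 dpa (exact adjusted p = 0.0429; lost in 9 of 12 fits with 1 library left out, adjusted p up to 0.129). Without the low-share libraries the differences were 1.55, -0.62 and 0.94, and of these the fall was called (exact adjusted p = 0.03). The rises against 0 dpa rest on a single WT library there. Each had the smallest p that its arrangements (24 and 40) allow, so the lack of a call does not decide on them. The ratio of class I to class IIa hdac genes fell by 0.84 from 1 to 4 dpa (exact adjusted p = 0.015; 0.67 lower and exact adjusted p = 0.03 without the low-share libraries). Its other differences, log2 0.57 and -0.27, were not called, and the genotypes taken alone differed in them (-0.01 in WT and 1.14 in KO from 0 to 1 dpa). In each group that holds them, the low-share libraries had the highest ratios (in WT at 0 dpa -1.07 and -1.31 against -2.21). Without the low-share libraries these differences were 0.88 and 0.22, with a single WT library at 0 dpa. The ratio of kdm6b to kdm6a genes changed by -0.13, -0.23 and -0.10 with no call (exact adjusted p = 0.43, 0.207 and 0.3). With the most abundant ID of each side the last was -0.55 and was called (exact adjusted p = 0.012).

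**Figure D4:**
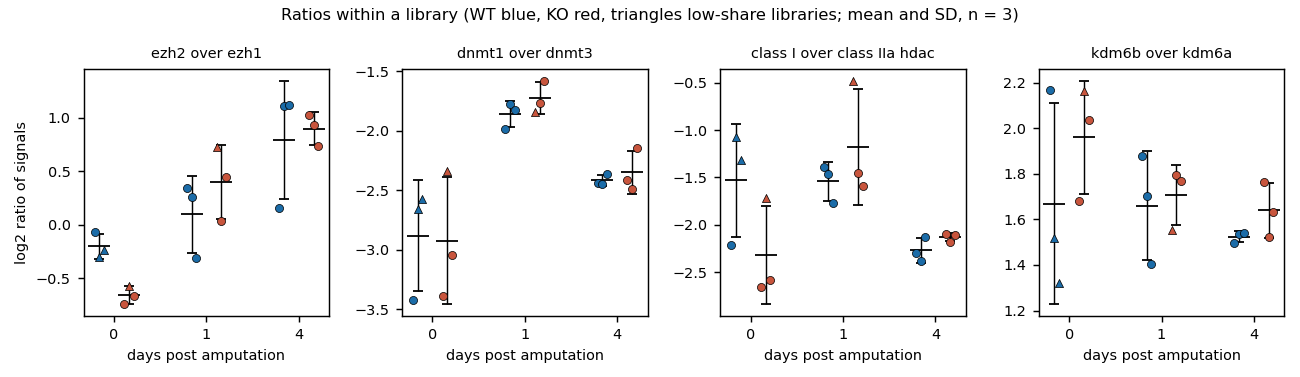
The log2 ratio of summed signals within each library (vertical axis) for 4 pairs of paralogue sets at 0, 1 and 4 days post amputation (horizontal axis); each point is 1 library, WT in blue and KO in red, triangles are low-share libraries, and bars give the mean and SD of 3. The mean ezh2 to ezh1 ratio of each genotype is highest at 4 dpa, though the WT points at 1 and 4 dpa overlap. All dnmt1 to dnmt3 ratios at 1 dpa lie above all others.

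No member differed between KO and WT by the limma test. At 0, 1 and 4 dpa 0 of 96 were called, against 0.101%, 0.00439% and 0.0351% of all tested genes, and 7, 1 and 0 members had an unadjusted p below 0.05, against 4.8%, 2.04% and 4.06% of all genes. Averaged over the times 0 were called, against 0.14% of all genes, and 0 had an unadjusted p below 0.05, against 3.2% of all genes. The interactions of genotype with time (4 against 0, 1 against 0 and 4 against 1 dpa) called 0 members and 0% of all genes, with 3, 6 and 0 members at an unadjusted p below 0.05, against 3.9%, 4.17% and 2.62% of all genes. The edgeR quasi-likelihood test called 0 members in all of these, and DESeq2 called HDAC4 at 0 dpa (adjusted p = 0.0142) and 0 elsewhere. KO and WT groups did not overlap in 5 members at 0 dpa (5.21% against 7.14% of all genes), 7 at 1 dpa (7.29% against 8.45%) and 4 at 4 dpa (4.17% against 11%). The typical 95% interval of a member's genotype difference at 1 time reached 0.49 on the log2 scale to either side, before any adjustment over genes.

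The 5 members with the smallest p between genotypes at 0 dpa were HDAC4, JARID2 ENSDARG00000062268, CBX3, kdm7aa and dnmt3ba. HDAC4 had signals of 10401, 8558 and 11851 in KO and 7493, 5457 and 6181 in WT, groups that did not overlap, and a log2 difference of 0.69 (SE 0.18, limma adjusted p = 0.380). JARID2 ENSDARG00000062268 had 7240, 4189 and 8156 in KO and 5080, 2377 and 2975 in WT, a log2 difference of 0.93 (SE 0.26, adjusted p = 0.470). The groups of JARID2 ENSDARG00000062268 overlapped. For both HDAC4 and JARID2 ENSDARG00000062268 the low-share libraries were the lowest in each genotype. CBX3 went the other way, with 1107, 1500 and 1318 in KO and 1732, 2402 and 2195 in WT (log2 -0.69, SE 0.21, limma adjusted p = 0.629). Its low-share libraries were the highest in each genotype. For kdm7aa the difference was log2 0.75 (adjusted p = 0.631) and for dnmt3ba -0.58 (adjusted p = 0.838). Their groups overlapped for kdm7aa and dnmt3ba. By 4 dpa the same differences were -0.02 for HDAC4, 0.07 for JARID2 ENSDARG00000062268, 0.07 for CBX3, 0.04 for kdm7aa and 0.06 for dnmt3ba. WT has 2 and KO 1 low-share library at 0 dpa; without them, in a comparison of 2 KO libraries with 1 WT library whose spread is assumed to be that of the other groups, the HDAC4 difference at 0 dpa was 0.57 (adjusted p = 0.330) and that of JARID2 ENSDARG00000062268 0.60 (adjusted p = 0.217). As interactions, the rises from 0 to 1 dpa differed by log2 -0.82 for HDAC4 (SE 0.25), -1.07 for JARID2 ENSDARG00000062268 (SE 0.37), 1.05 for CBX3 (SE 0.30), -0.90 for kdm7aa (SE 0.34) and 0.82 for CBX5 (SE 0.32), KO minus WT, all with a limma adjusted p of 0.795. From 0 to 4 dpa HDAC4 had -0.71 (adjusted p = 0.992). At 1 dpa the smallest p between genotypes was that of HDAC11 (log2 -0.39, SE 0.16), and at 4 dpa that of hdac12 (log2 0.52, SE 0.27), neither called.

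**Figure D5:**
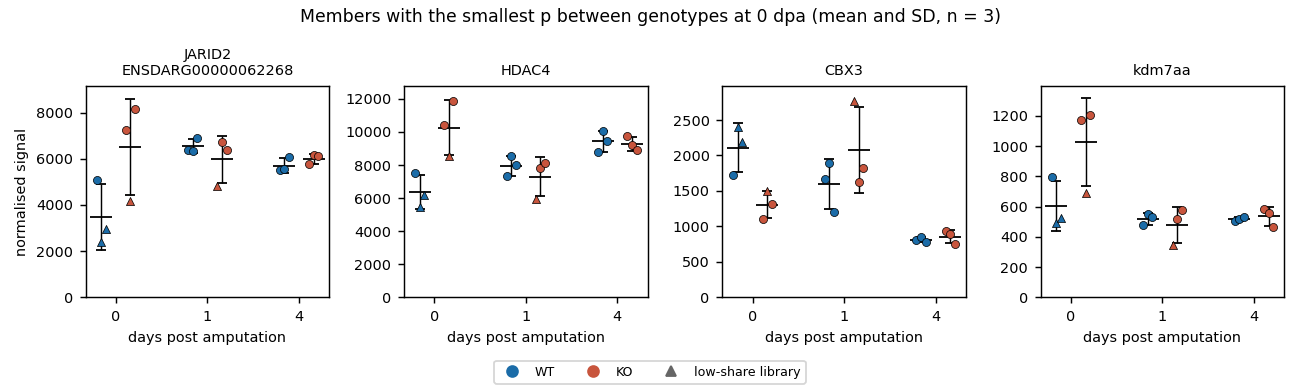
Normalised signal (vertical axis, linear) of HDAC4, JARID2 ENSDARG00000062268, kdm7aa and CBX3 at 0, 1 and 4 days post amputation (horizontal axis); each point is 1 library, WT in blue and KO in red, triangles are low-share libraries, and bars give the mean and SD of 3. KO points lie higher at 0 dpa for HDAC4 (8558 to 11851 against 5457 to 7493), and at 4 dpa the groups overlap.

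Of 108 tested partner genes outside the members, 50 rose and 16 fell in WT and 53 rose and 10 fell in KO from 0 to 4 dpa, with median changes of log2 0.37 and 0.57. That is 46.3% higher and 14.8% lower in WT, where 25.9% and 29.6% of all tested genes were, and 49.1% higher and 9.26% lower in KO, where 23.3% and 25.7% were. Over all of these calls, 16 of 66 in WT and 37 of 63 in KO held in all 3 fits. In the order WT then KO, lysine 9 and heterochromatin partners had 3 and 4 rises and 1 and 0 falls of 9. The COMPASS, lysine 36 and lysine 79 list had 7 and 7 rises and 4 and 2 falls of 17, and corepressors 14 and 13 rises and 3 and 3 falls of 22. Acetyltransferases had 9 and 8 rises and 2 and 1 falls of 14, and other JmjC genes 2 and 3 rises and 0 falls of 7. PRC2 partners rose in 4 of 6 in KO and 1 of 6 in WT with 0 falls, and the 1 common to both was rbb4l, a histone-binding subunit gene (log2 0.98 in WT, adjusted p = 2.42e-05, and 0.90 in KO). PRC1 partners rose in 9 of 16 in WT and 10 of 16 in KO with 1 and 0 falls, among them asxl1, whose product acts in H2A deubiquitylation (log2 2.12 in WT and 2.05 in KO). Among the 17 DNA methylation partners, of which 5 rose and 5 fell in WT and 4 rose and 4 fell in KO, the stress gene GADD45B ENSDARG00000027744 fell by log2 -3.94 in WT and -3.89 in KO. UHRF1, which guides DNMT1 to replicating DNA, rose at 1 dpa by log2 0.82 in WT and 1.21 in KO (adjusted p = 1.85e-03 and 8.36e-05). The calls named of rbb4l, asxl1, GADD45B ENSDARG00000027744 and UHRF1 held in all 3 fits.

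Markers of dividing cells and of tissue makeup moved with the same comparisons. The 19 proliferation genes had summed signals per library of 8260 to 12757 at 0 dpa, 20447 to 23918 at 1 dpa and 15907 to 21971 at 4 dpa in WT, and of 5835 to 11629, 26154 to 31086 and 20049 to 23296 in KO. Of these 19, 12 rose in WT and 17 in KO at 1 dpa, where 19.1% and 15.4% of all tested genes were higher. The fibroblast and matrix sum was 65622 to 107599 at 0 dpa and 230646 to 273899 at 4 dpa over both genotypes, and 6 of its 7 genes rose in WT and 7 of 7 in KO at 4 dpa. The pigment sum was 2350 to 4561 at 0 dpa and 1134 to 1581 at 4 dpa, with 5 of 7 genes called lower in WT and 4 of 7 in KO. The epidermal sum at 4 dpa was 157071 to 202364, below all libraries at 0 dpa, and krt5 made up most of it. Of its 5 genes, epcam and krt4 were called lower at 4 dpa in WT, neither in all 3 fits. In KO epcam was lower (log2 -2.79, in all 3 fits), and TP63 was higher (log2 0.41, not with the share term). Of 4 endothelial genes, 3 rose in WT and 4 in KO at 4 dpa, and 3 of these calls held in all 3 fits in each genotype. Of 5 bone genes 3 rose in WT and 4 in KO, and 1 and 2 of these calls held so. The bone sum was 15898 to 32706 at 0 dpa, 10078 to 12507 at 1 dpa and 32544 to 49855 at 4 dpa over both genotypes. COL10A1 ENSDARG00000054753 was its highest gene in every library at 0 and 4 dpa. At 1 dpa 3 of the 5 bone genes were called lower in each genotype. RUNX2 was called higher there (log2 1.95 in WT and 1.56 in KO, in all 3 fits). Leukocyte sums were 3513 to 5125 at 0 dpa and 6062 to 7094 later, without overlap, but their 6 genes differed: 3 were higher and 1 lower in WT at 4 dpa and 2 higher and 1 lower in KO, with 2 calls in each genotype holding in all 3 fits. The macrophage gene csf1ra was higher (log2 2.68 in WT and 2.44 in KO, in all 3 fits), while lyz, for lysozyme, was lower (log2 -4.21 in WT and -5.29 in KO, the latter in all 3 fits). Muscle sums were 91 to 156 at 0 dpa and 302 to 440 later, without overlap, and rested on TNNT3 ENSDARG00000068457, called higher in all 4 comparisons with 0 dpa (log2 2.72 to 3.02, in all 3 fits). The 1 other muscle call of these was a fall, that of ckma in WT at 1 dpa (log2 -2.22, in neither of the other fits). Erythrocyte sums overlapped between times (138 to 4830). Of the proliferation calls, 11 of 12 in WT and 17 of 17 in KO at 1 dpa held in all 3 fits, as did all 6 and 7 fibroblast and matrix calls at 4 dpa, but 1 of 5 pigment calls in WT and 4 of 4 in KO. The part of these changes in the members' changes was not tested.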

How the data were processed

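Caudal fin clips of 3 pools of 10 fish per group were sequenced, per the labels' protocols from PCR-amplified cDNA with no molecular identifiers described. Trim Galore 0.6.7, cutadapt 3.5, STAR 2.7.10 and the danRer11 build are named in the submitters' processing notes; not given in the sources used here are whether counting used strand and which gene annotation served. The deposited values are signals, read counts divided by a size factor per library by the authors, as whole reads were recovered for 100% of values within 0.001 of a read. The design foresaw limma for normalised values and a count test for raw ones. Since the files hold normalised values, limma on the deposited signals remained the main test and count tests on the recovered reads were alternatives.

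The 22779 genes with 3 or more of 18 libraries at a signal of 10 or higher were fitted with limma 3.58.1 (trend, R 4.3.3) on log2(signal + 1) with 6 group means, two-sided, with Benjamini-Hochberg adjustment at 0.05; changes on this scale are understated for low genes. On the recovered reads edgeR 4.0.16 (quasi-likelihood) called 35 of the same 35 members in WT at 1 dpa and 60 of 62 at 4 dpa, and DESeq2 1.42.0 called 35 and 60. The limma step was also run on simulated counts with known changes, and the outcome is not given here. Those counts held no shift in the share of the dominant genes, so they do not bear on the calls lost with the share term. Floors of 3 reads cover counting error only.

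Named members were, per role and time comparison, up to 4 called ones with the highest change, a mean signal of at least 20 and groups that did not overlap, all members of the PRC2, DNMT and TET groups, and between genotypes the 5 with the smallest p; others were named to account for their role. The members, roles, partner lists (PRC2, PRC1, lysine 9, COMPASS, DNA methylation, corepressors, acetyltransferases, JmjC) and marker lists were chosen with earlier results of these data known. The exclusion of low-share libraries and the share term were chosen after seeing the data. Other alternatives changed the pseudocount, filter, scaling, test, samples fitted, replicate block and each library in turn. Values of 1 member are not reported here.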

Additional observations from a re-analysis of the deposited data

How the results depend on the processing

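Under another pseudocount, filter, scaling (TMM) or count test, every member called over time kept its direction, and the counts that moved by over 1.5 times were WT falls at 1 dpa (11 with DESeq2) and WT rises from 1 to 4 dpa (12 with DESeq2). Fitting only the groups compared gave 22 rises and 11 falls from 1 to 4 dpa in WT, and 6 rises and 1 fall at 1 dpa in KO. Shares of all genes in that fit are not given here. DESeq2 called 1 member between genotypes at 0 dpa. Without the low-share libraries, WT had 24 rises and 12 falls from 1 to 4 dpa. That is 25% of members against 15.4% of all genes, and 12.5% against 18.9%. KO had 20 rises in that comparison (20.8% against 12.5%). With the share term, WT rises at 1 dpa numbered 13, WT rises and falls at 4 dpa 8 and 6, KO falls at 1 dpa 15, and KO rises at 4 dpa 25. Members that then turned direction in WT at 1 dpa were kdm6bb (-0.089), kmt2a (-0.14), kmt2ba (-0.088), PCGF1 (0.14) and kdm4aa (-0.011). At 4 dpa in WT they were DNMT3A ENSDARG00000005394 (-0.10), CBX5 (0.11), kmt2a (-0.045), JARID2 ENSDARG00000062268 (-0.093), JARID2 ENSDARG00000060925 (-0.081), SETD5 (-0.10), setd2 (-0.065), hdac3 (0.60), HDAC7 (-0.10) and KDM8 (0.32). The others of the 16 were KDM6A, KMT2C ENSDARG00000079312, SETD6, TET1, kdm4c and kmt5aa. The cause was not tested.

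Leaving out 1 library at a time gave 15 to 36 rises and 4 to 8 falls in WT at 1 dpa (17 rises without WT 0 dpa replicate 2 and 15 without replicate 3), and 0 to 7 rises in WT from 1 to 4 dpa (0 without WT 1 dpa replicate 1 or 2, or WT 4 dpa replicate 2 or 3). In KO it gave 12 to 24 rises and 3 to 7 falls at 1 dpa (12 rises without KO 0 dpa replicate 3 and 13 without KO 1 dpa replicate 2), and 7 to 15 rises and 4 to 14 falls from 1 to 4 dpa (7 rises without KO 1 dpa replicate 1). The ezh2 to ezh1 ratio at 1 dpa was 0.30 in WT alone, 1.06 in KO alone, 0.55 without low-share libraries and 0.60 to 0.78 with 1 library left out; at 4 dpa it was 1.23, and against 1 dpa 0.68, without low-share libraries (0.50 to 0.76 with 1 library left out). The dnmt1 to dnmt3 ratio was 1.55 at 1 dpa and 0.94 at 4 dpa without low-share libraries (0.39 to 0.67 at 4 dpa with 1 library left out). The class I to IIa hdac ratio was -0.0080 in WT alone and 1.14 in KO alone at 1 dpa, and -0.74, 0.19 and, without low-share libraries, 0.22 at 4 dpa. With the most abundant ID of each, the kdm6b to kdm6a ratio was 0.0040 at 1 dpa and -0.55 from 1 to 4 dpa, now called (exact adjusted p = 0.012).

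Deviations of same-numbered libraries of different groups correlated with a median r of 0.01 over 45 pairs (-0.615 to 0.735), 12 of which were over 0.1. For differently numbered libraries the median was -0.009 over 90 pairs (-0.750 to 0.618), 19 of which were over 0.1. Of 18 libraries, 9 correlated best with their own number. Whether a shared number marks a shared batch was not tested. With the replicate block, WT had 28 rises and 8 falls at 1 dpa, 44 and 15 at 4 dpa and 4 and 5 from 1 to 4 dpa; KO had 18 and 5, 43 and 16, and 12 and 11 in these comparisons, with 0 between genotypes. With 3 libraries a group, the reads of the dominant genes limit depth for all other genes most at 4 dpa.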
